A study of Homo sapiens with 16 samples.

Results

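The 263 zinc finger genes of human chromosome 19 were described by their H3K9me2 ChIP-seq reads in BJ-5ta cells, a line of human foreskin fibroblasts immortalized with telomerase. A gene was included when a transcription start site (TSS) window on chromosome 19 carried a symbol made of ZNF, a number and at most 1 further letter. These genes held 1512 windows with distinct coordinates, of 12518 on the chromosome and 237274 in all, and 263 of the 3031 genes with windows there. Chromatin came from wild-type (WT) cells and from ΔLEO1 cells, a single clone in which CRISPR/Cas9 targeted the first exons of LEO1, a subunit of the RNA polymerase II-associated PAF1C complex. Both genotypes were taken from 10% serum, in which the cells proliferate, and after 10 days in 0.1% serum, a treatment that makes them quiescent. Each of these conditions had ChIP replicates A and B and input replicates A and B, 16 libraries in all. By its label the antibody is only H3, while the methods of the study give one against H3K9me2. Because ΔLEO1 is 1 clone, the genotype and the history of that clone cannot be told apart. No label says that replicates came from separate cultures, so p-values measure the spread between these libraries, which may be technical.

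Most zinc finger genes of this chromosome encode transcription factors with a tandem array of C2H2 zinc fingers, which read DNA sequence, and many also carry a KRAB domain. The KRAB domain binds the corepressor TRIM28, which brings the H3K9 methyltransferase SETDB1 and HP1 proteins to target sites such as retrotransposons. The genes themselves arose by tandem duplication and lie in clusters, and their 3′ exons, which encode the fingers, are known for H3K9 trimethylation in many cell types. H3K9me2, the mark measured here, is a mark of silent chromatin that is laid down mainly by the EHMT1 and EHMT2 methyltransferases. A window reached 1 kb to each side of an annotated TSS, so the values describe such starts, some of which lie far inside the gene. The 3′ exons were not measured as such, and whether some windows reach them was not checked.

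The RefSeq promoters of genes at both ends of the ChIP over input range were all rich in CpG. They are printed 5′ to 3′ on the strand of the gene (GRCh38.p14, 250 bases before to 50 after the annotated start) with every CG in capitals, because CpG content is the promoter property to which the values of the zinc finger genes are set below. The first pair, ZNF135 (chr19:58058989-58059288, plus strand) and ZNF835 (chr19:56671708-56672007, minus strand), had the highest ChIP over input of all the zinc finger genes tested. The second pair, ZNF791 (chr19:12610670-12610969, plus strand) and ZNF816 (chr19:52962832-52963131, minus strand), had the lowest.
ZNF135: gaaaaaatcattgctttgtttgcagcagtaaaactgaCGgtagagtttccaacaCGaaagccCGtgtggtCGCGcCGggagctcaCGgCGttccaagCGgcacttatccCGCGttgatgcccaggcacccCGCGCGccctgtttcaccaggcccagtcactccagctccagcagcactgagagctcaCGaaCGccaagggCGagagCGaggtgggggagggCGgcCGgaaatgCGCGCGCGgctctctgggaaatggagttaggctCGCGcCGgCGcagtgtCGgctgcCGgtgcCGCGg
ZNF835: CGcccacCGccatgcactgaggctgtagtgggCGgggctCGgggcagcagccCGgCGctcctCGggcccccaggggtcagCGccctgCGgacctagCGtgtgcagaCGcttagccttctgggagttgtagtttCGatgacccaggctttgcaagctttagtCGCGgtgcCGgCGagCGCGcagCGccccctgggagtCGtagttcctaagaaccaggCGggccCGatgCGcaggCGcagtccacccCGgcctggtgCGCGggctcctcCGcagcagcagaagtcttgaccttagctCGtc
ZNF791: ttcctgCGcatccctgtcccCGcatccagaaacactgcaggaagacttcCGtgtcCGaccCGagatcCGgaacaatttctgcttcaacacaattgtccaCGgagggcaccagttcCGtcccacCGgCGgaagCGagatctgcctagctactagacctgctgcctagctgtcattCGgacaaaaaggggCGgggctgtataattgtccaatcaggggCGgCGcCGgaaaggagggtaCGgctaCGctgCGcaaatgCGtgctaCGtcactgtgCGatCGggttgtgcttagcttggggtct
ZNF816: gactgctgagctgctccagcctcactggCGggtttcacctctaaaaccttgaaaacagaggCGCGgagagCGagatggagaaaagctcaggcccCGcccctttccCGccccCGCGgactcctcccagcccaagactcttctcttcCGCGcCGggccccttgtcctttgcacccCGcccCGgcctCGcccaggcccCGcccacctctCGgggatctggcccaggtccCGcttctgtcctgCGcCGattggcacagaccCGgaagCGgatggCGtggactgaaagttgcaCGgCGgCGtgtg
The number of CG dinucleotides was 32 for ZNF135 and 29 for ZNF835. It was 23 for ZNF791 and 25 for ZNF816. All 4 promoters hold far more than the median of 14 over 35116 RefSeq promoters. They also hold more than the median of 20 over the zinc finger genes with an entry. This does not extend to the next gene with an entry at the high end, ZNF492, which held 16. The next at the low end, ZNF576, held 25.

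The 7 ChIP libraries used held between 1895570 and 3266062 reads in distinct TSS windows and the 8 inputs between 2844483 and 7947292. ChIP replicate A of ΔLEO1 in 10% serum held 50 reads, none of them in a zinc finger gene, and was left out, so that condition has 1 ChIP library and is given by its values only. A zinc finger gene had a median of 5 windows, from 1 window in 22 genes to 25 in ZNF331. Windows of 1 gene often overlap and then count the same read again: a choice of windows that do not overlap within their gene keeps 534 of the 1512. The median gene had 52 to 82 reads per ChIP library over all of its windows. Over 258 genes, Pearson's r between the log2 levels of replicates A and B was 0.77 to 0.80 for ChIP and 0.25 to 0.63 for input, as a description. The start windows of LEO1, the targeted gene, did not separate the genotypes in input, with a log2 fold change of −0.37 ± 0.17 (SE) and an adjusted p of 0.854 in edgeR's test described below, so the deletion was not checked by these windows.

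Zinc finger genes took a larger part of the chromosome 19 window reads in ChIP than in input in all 4 conditions. Their share of the chromosome 19 reads was 17.9% and 18.2% in the ChIP libraries of WT cells in 10% serum. It was 16.8% and 17.2% in WT cells in 0.1% serum, and 16.2% and 16.6% in ΔLEO1 cells in 0.1% serum. The single library of ΔLEO1 cells in 10% serum gave 17.6%. The 8 inputs gave 12.7% to 14.2%, so ChIP and input did not overlap. The ratio of the ChIP share to the mean input share of the same condition was 1.39 ± 0.016 (SD, n = 2) in WT cells in 10% serum and 1.25 ± 0.021 (SD, n = 2) in WT cells in 0.1% serum. It was 1.23 ± 0.019 (SD, n = 2) in ΔLEO1 cells in 0.1% serum and 1.29 in the single ΔLEO1 library in 10% serum. Among ChIP libraries the share was thus highest in proliferating WT cells and lowest in quiescent ΔLEO1 cells, with no overlap between those groups. Leaving out the zinc finger gene windows that are overlapped by a window belonging to no zinc finger gene raised the ratios to between 1.31 and 1.48. Chromosome 19 itself held a smaller share of all TSS window reads in ChIP, at 0.854 to 0.972 of the mean matched input. Set against all TSS windows, the ratio of zinc finger genes was smaller, at 1.313 in WT cells in 10% serum and 1.198 in 0.1% serum. It was 1.065 in ΔLEO1 cells in 0.1% serum and 1.246 in the single ΔLEO1 library in 10% serum. ChIP and input still did not overlap, at 0.797% to 1.003% and 0.731% to 0.767% of all these reads.

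**Figure D1:**
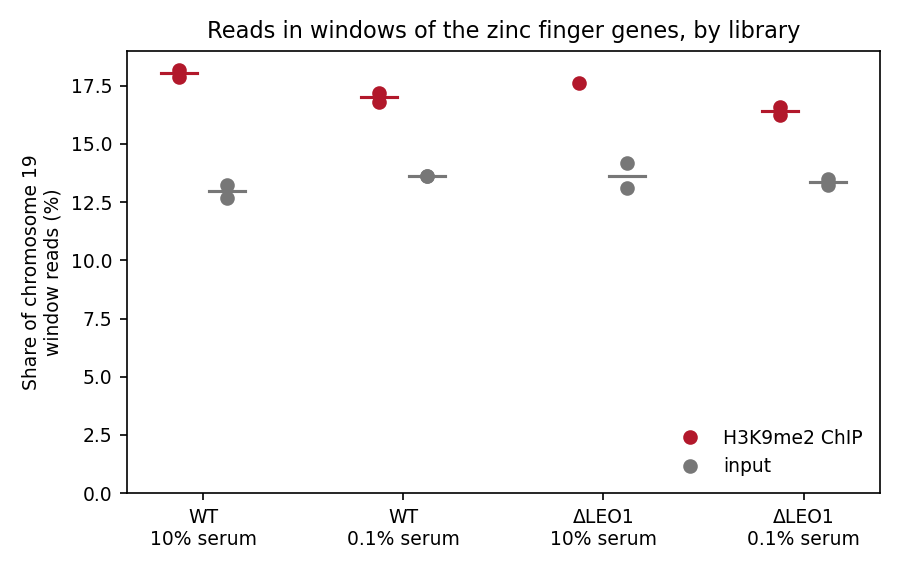
Share of the reads in distinct chromosome 19 TSS windows that lie in windows of zinc finger genes (y axis, percent), for each library of the 4 conditions (x axis); points are libraries and bars are means of 2 libraries. All 7 ChIP libraries, from 16.2% to 18.2%, sit above all 8 inputs, from 12.7% to 14.2%.

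To give each gene the same number of windows, 1 window per gene was taken, the one nearest to the RefSeq start and at most 1 kb from it. Reads were summed over these windows, so a gene with more reads weighs more. A promoter was called CpG-rich when its GC content was at least 50% and its observed over expected CpG ratio at least 0.6. Of the 216 zinc finger genes with a promoter entry, 76.9% were CpG-rich, against 78.8% of ZNF genes on other chromosomes and 60.5% of other chromosome 19 genes outside the clusters. Summed over the 164 CpG-rich start windows of zinc finger genes on chromosome 19, log2 ChIP over input was −0.46 in the lowest ChIP library, −0.18 at the median and −0.06 in the highest. The 167 CpG-rich starts of ZNF genes on other chromosomes gave −0.86, −0.68 and −0.60. The 528 CpG-rich starts of other chromosome 19 genes outside the clusters gave −1.30, −1.18 and −0.92, and all 10959 CpG-rich starts gave −1.03, −0.88 and −0.79. CpG-rich starts of zinc finger genes on chromosome 19 were therefore less depleted than each of these sets in every one of the 7 ChIP libraries. The 54 CpG-rich starts of other genes that lie among the clustered zinc finger genes, at −0.89, −0.64 and −0.52, overlapped with those of ZNF genes elsewhere.

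CpG-poor starts did not set the zinc finger genes apart in the same direction. The 50 CpG-poor starts of zinc finger genes on chromosome 19 ranged from −0.38 to 0.01 with a median of −0.21, below the 7512 CpG-poor starts of all genes at 0.07 to 0.17. ZNF genes on other chromosomes, with 43 CpG-poor starts, stood at −0.05 to 0.19 with a median of 0.06, and the 67 of other genes inside the cluster spans at 0.12 to 0.37. The 340 of chromosome 19 genes outside the clusters, at −0.36 to −0.16 with a median of −0.29, overlapped with the zinc finger genes. Across all genes, CpG-rich and CpG-poor starts did not overlap in their range over libraries, whereas among zinc finger genes of chromosome 19 both ranges covered nearly the same values. Over the 213 zinc finger genes with both values, Spearman's rho between ChIP over input per gene and the CpG ratio was −0.06 and Pearson's r −0.04, given as a description of genes that share libraries and base composition. These levels use the library scaling given under the methods, which shifts all sets of a library alike and leaves the differences between sets as they are.

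**Figure D2:**
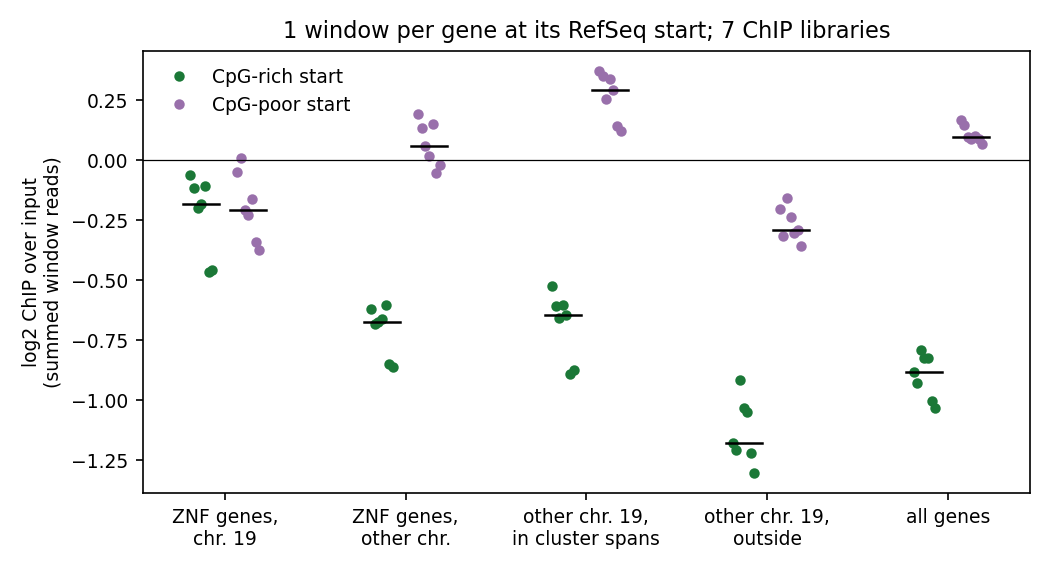
log2 ChIP over input (y axis) of reads summed over 1 window per gene at the RefSeq start, for sets of genes (x axis) split into CpG-rich (green) and CpG-poor (purple) starts; each point is 1 of 7 ChIP libraries over the mean input of its condition and the bar is their median. The CpG-rich starts of zinc finger genes on chromosome 19, from −0.46 to −0.06, lie above those of all genes, from −1.03 to −0.79.

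Windows farther into the gene were compared by their distance from its most upstream start. For zinc finger genes of chromosome 19, log2 ChIP over input of the summed reads was −0.30 to 0.09 over the 7 ChIP libraries in the 976 windows within 1 kb of that start. It was 0.04 to 0.35 in the 134 windows 1 to 5 kb away, −0.06 to 0.30 in the 227 windows 5 to 20 kb away and −0.20 to 0.23 in the 175 windows beyond 20 kb. The level was thus lowest within 1 kb of the start, rose from there to the windows 1 to 5 kb away in every one of the 7 libraries, and was lower again farther in. ZNF genes on other chromosomes went from −0.80 to −0.51 within 1 kb up to −0.07 to 0.05 beyond 20 kb. Other chromosome 19 genes outside the clusters went from −0.81 to −0.52 within 1 kb up to −0.48 to −0.27 beyond 20 kb. Within 1 kb and from 1 to 5 kb, the zinc finger genes of chromosome 19 did not overlap with either of these sets. Other genes inside the cluster spans stood at −0.0054 to 0.36 within 1 kb, above the zinc finger genes in every library, and at −0.29 to 0.12 from 1 to 5 kb, below them in every library. A high level near starts was therefore not particular to the zinc finger genes among the genes of these regions.

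Single genes spread widely around this. Of the 258 zinc finger genes that could be tested, 77 were called higher in ChIP than in input and 96 lower in edgeR's quasi-likelihood test, at a Benjamini-Hochberg adjusted p under 0.05 over all genes. That is 29.8% higher, where 39.4% of all 57638 genes tested were called higher, and 37.2% lower, where 32.8% of all genes were. The split depends on the scaling: with plain library totals in place of TMM scaling, 112 were called higher (43.4%, against 50.5% of all genes) and 73 lower (28.3%, against 26.6%), and the median of all genes moved from 0.14 to 0.39. DESeq2 with its own size factors called 50 higher (19.4%, against 25.6% of all genes) and 100 lower (38.8%, against 31.7%). The median log2 fold change of the zinc finger genes lay 0.23 below that of all genes with TMM scaling and 0.22 below it without. It lay only 0.06 below when overlapping windows were dropped, and 0.29 above when each distinct window was tested alone, so the place of these genes against all genes depends on how windows are weighted. It did lie above ZNF genes of other chromosomes and other chromosome 19 genes outside the clusters with both sums: the medians were −0.09, −0.45 and −0.51 over all windows, and −0.02, −0.35 and −0.59 over non-overlapping windows. Other genes inside the cluster spans had the highest median, 0.50 over all windows and 0.38 over non-overlapping windows.

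The 6 highest genes were ZNF135, ZNF835, ZNF812P, ZNF492, ZNF556 and ZNF98, with log2 fold changes of 1.41 to 1.04 and adjusted p-values of at most 4.45e-05 in edgeR's test. Levels are given as CPM per window, where CPM is a count scaled to the library size by TMM, a scale on which genes with different numbers of windows can be compared. ZNF135 held 15.4 and 13.8 CPM per window in the ChIP libraries of WT cells in 10% serum, 9.20 and 9.92 in WT cells in 0.1% serum, 7.07 and 6.66 in ΔLEO1 cells in 0.1% serum and 4.86 in the ΔLEO1 library in 10% serum. Its 8 inputs held 2.80 to 4.82, below every ChIP library. ZNF835 held 12.8 and 11.9, 13.2 and 11.7, 8.84 and 7.22, and 12.1 CPM per window in the same order, with inputs of 3.03 to 4.94. Both genes are thus above all of their inputs in every condition, and both are lowest in ΔLEO1 cells, ZNF135 in 10% serum and ZNF835 in 0.1% serum. ZNF98 held 11.5 and 11.9 CPM per window in WT cells in 10% serum, 8.20 and 8.36 in WT cells in 0.1% serum, and 6.25 and 6.92 in ΔLEO1 cells in 0.1% serum, with inputs of 3.60 to 5.27. ZNF812P, a pseudogene by its symbol, held 7.30 to 12.7 over the 7 ChIP libraries and 3.57 to 5.11 in input.

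The 6 lowest genes were ZNF791, ZNF816, ZNF576, ZNF564, ZNF845 and ZNF491, with log2 fold changes of −3.19 to −1.88 and adjusted p-values of at most 4.57e-07. ZNF791 held 0.00 to 2.01 CPM per window over the 7 ChIP libraries and 5.15 to 7.0 in input. In non-overlapping windows these were 1 and 6 reads in WT cells in 10% serum, 2 and 0 in WT cells in 0.1% serum, 1 and 2 in ΔLEO1 cells in 0.1% serum and 4 in the ΔLEO1 library in 10% serum, against 13 to 50 reads in the inputs. ZNF576 held 0 to 5 such reads per ChIP library and 13 to 65 per input. ZNF845 held 1 to 7 per ChIP library and 10 to 43 per input. ChIP reads at these starts are few in every condition, so their differences between conditions rest on a handful of fragments. ZNF791, ZNF564 and ZNF491 all lie in the third of the clusters described next.

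**Figure D3:**
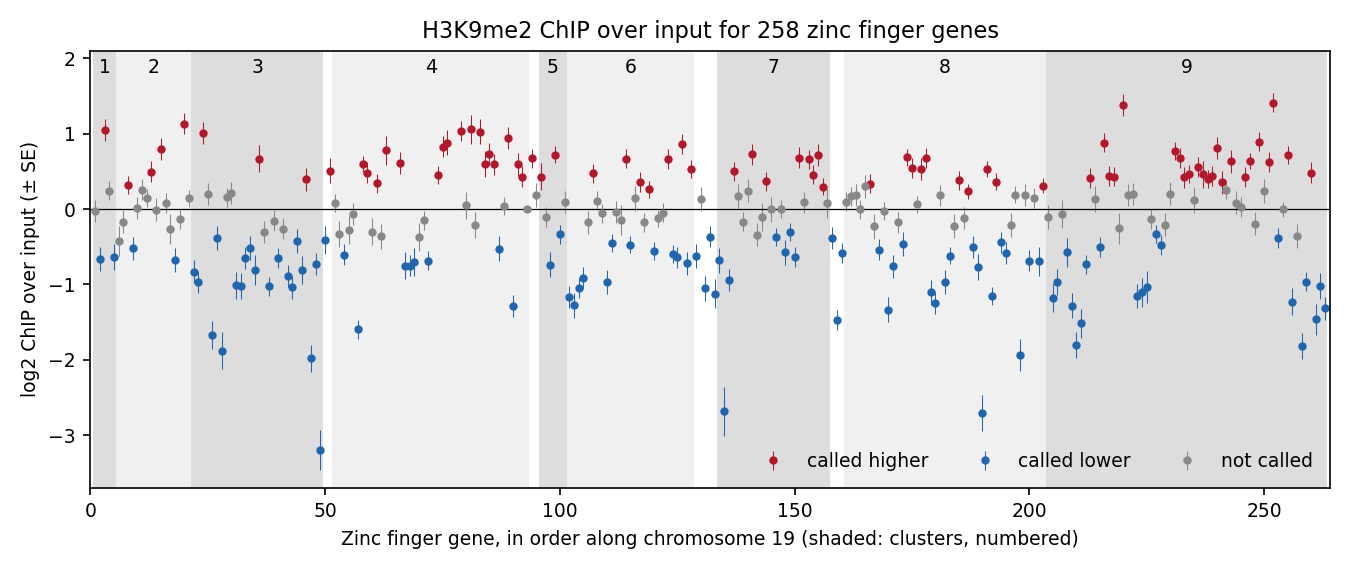
log2 ChIP over input with its standard error (y axis) for the 258 tested zinc finger genes in their order along chromosome 19 (x axis), with the 9 clusters shaded and numbered; red points were called higher, blue lower and grey were not called. Values run from −3.19 for ZNF791 to 1.41 for ZNF135, and the zero line depends on TMM scaling, without which the median of all genes moves from 0.14 to 0.39.

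Along the chromosome, 251 of the genes fell into 9 clusters, in which neighbouring genes are less than 1 Mb apart and which have at least 5 genes, and 12 lay outside. Cluster 3 stood lowest. It holds 28 genes from ZNF653 to ZNF490 (chr19:11485830-12641098), of which 3 were called higher and 19 lower, with a median log2 fold change of −0.69. Lower calls made up 67.9% of this cluster, where they made up 32.8% of all genes. Its summed reads gave a log2 ChIP over input of −0.74 to −0.42 over the 7 ChIP libraries, below every value of the other 8 clusters. Cluster 9, with 60 genes from ZNF628 to ZNF446 (chr19:55475617-58477450), had the highest median of the clusters, 0.10, with 23 genes called higher and 20 lower. The median of all genes was 0.14. Cluster 4, with 42 genes from ZNF101 to ZNF254 (chr19:19667796-24105186), had 17 called higher and 8 lower among 37 tested. In the other clusters the medians lay between −0.14 and 0.05.

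The following runs of neighbouring genes were picked after their values were seen, and how often neighbours share a call was not measured. Of all zinc finger genes tested 29.8% were called higher, of those in cluster 4 45.9% and of those in cluster 9 38.3%. The share was 39.4% over all genes and 55.3% over other genes inside the cluster spans. From ZNF43 to ZNF730 in cluster 4 (chr19:21835182-23135187), 9 of 11 tested genes were called higher and none lower, among them ZNF208, ZNF257, ZNF98, ZNF492 and ZNF99, with values of −0.21 to 1.06. From ZNF419 to ZNF587 in cluster 9 (chr19:57486711-57862285), 12 of 16 genes were called higher and none lower, the highest being ZNF154 at 0.82 and ZNF419 at 0.77. Cluster 4 also holds the genes that received no reads. ZNF66, ZNF85, ZNF100 and ZNF729 had 0 reads in all 15 libraries, and ZNF676 had 4 and 2 reads in 2 inputs and none elsewhere. These 5 genes, all in cluster 4, are the zinc finger genes that could not be tested, and 4 windows of ZNF430 were also empty. With 0 reads in input as well, nothing can be said of the mark there. How the alignment treated reads that fit several near-identical genes is not given in the sources used here, and values of such paralogs are uncertain.

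**Figure D4:**
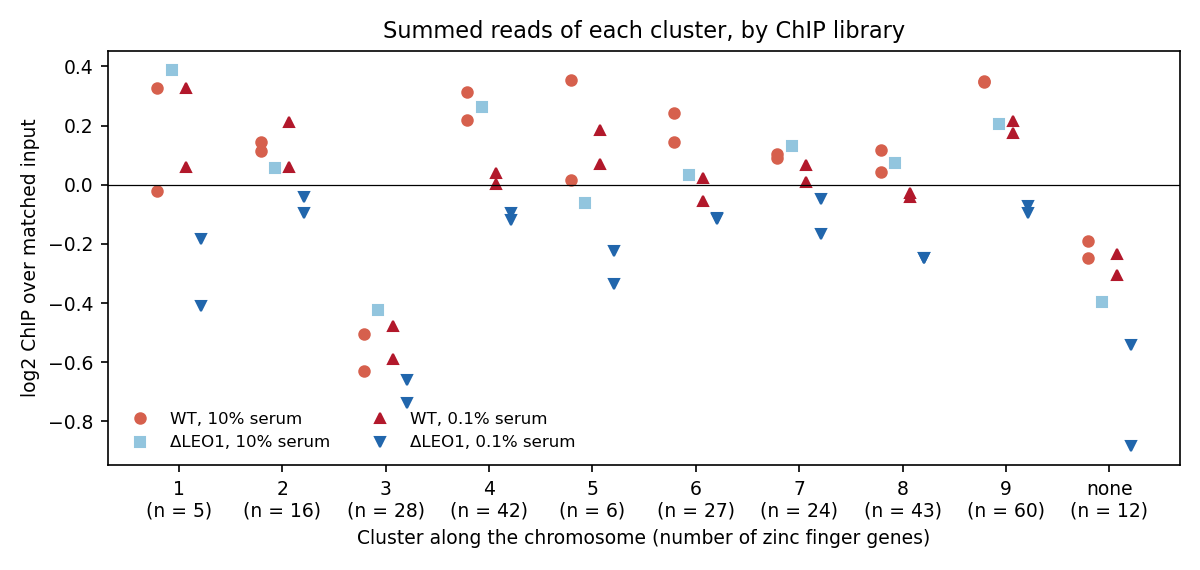
log2 of summed ChIP reads over the mean matched input, on the TMM scale (y axis), for each cluster of zinc finger genes and for the 12 genes outside clusters (x axis); each point is a ChIP library, marked by condition. Cluster 3 lies lowest of the 9 clusters in each library, and both ΔLEO1 libraries in 0.1% serum lie below the other 5 ChIP libraries in all 9 clusters; another scaling shifts each library as a whole.

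The genotype comparison in quiescent cells asked which zinc finger genes differ between ΔLEO1 and WT cells in 0.1% serum, on the ChIP reads alone. Levels are relative to the other windows of a library, since spike-in reads were not used here, and a change shared by all windows would not be seen. No zinc finger gene passed an adjusted p of 0.05 in edgeR's test among 256 tested, where 6 of all 52969 genes did (0.0113%). The values nevertheless leaned to one side: 180 of the 256 genes were lower in ΔLEO1 cells and 76 higher, with a median log2 fold change of −0.19, while the median of all genes was −0.01. This difference of 0.19 below all genes was 0.18 when reads in peak regions set the library sizes, although under that scaling the zinc finger genes themselves had a median of 0.11 and all genes one of 0.29, so the sign of the change is fixed only relative to other genes. At an unadjusted p under 0.05, 48 zinc finger genes (18.8%) were lower and 6 (2.34%) higher, where 5.85% and 4.2% of all genes were. DESeq2 called none of the 256 and put 16 under an unadjusted p of 0.05, where it put 1168 of all 52969 genes there. Both ΔLEO1 libraries lay below both WT libraries in 96 genes (37.5%), against 21.2% of all genes, and above both in 24 (9.38%), against 20% of all genes.

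Part of this lean was shared by the rest of the chromosome. Other chromosome 19 genes had a median log2 fold change of −0.11 outside the clusters and −0.12 inside, and ZNF genes on other chromosomes one of −0.07. Both ΔLEO1 libraries lay below both WT libraries in 28.5%, 29.1% and 23.7% of these sets. By cluster, the medians of zinc finger genes ran from −0.04 in cluster 7 to −0.47 in cluster 1, which has only 5 genes. In cluster 9, 29 of 59 tested genes had both ΔLEO1 libraries below both WT libraries, with a median of −0.31. Its summed ChIP level was 1899 and 1953 CPM in WT cells and 1585 and 1613 in ΔLEO1 cells in 0.1% serum. In 10% serum it was 2306 and 2301 in WT cells and 1904 in the single ΔLEO1 library. The ΔLEO1 library was thus lower there as well. In 8 of the 9 clusters both ΔLEO1 libraries lay below both WT libraries in 0.1% serum on this summed level. In cluster 7 they held 774 and 714 CPM, against 767 and 797 in WT cells.

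The genes with the largest falls in ΔLEO1 cells were ZNF701, ZNF681, ZNF582, ZNF564 and ZNF71, none of which passed the adjusted threshold. ZNF701 held 4.60 and 3.76 CPM per window in WT cells and 1.52 and 1.52 in ΔLEO1 cells in 0.1% serum, a log2 fold change of −1.39 ± 0.29 (SE) with an adjusted p of 0.138 in edgeR's test. In 10% serum its WT libraries held 3.67 and 2.55 and the ΔLEO1 library 4.18, so the order was the opposite there. ZNF681 held 5.21 and 4.89 in WT cells and 2.17 and 2.01 in ΔLEO1 cells in 0.1% serum, a log2 fold change of −1.18 ± 0.25 (SE), adjusted p 0.138. In 10% serum it held 3.98 and 4.70 in WT cells and 0.972 in the ΔLEO1 library, low in both sera. ZNF582, whose promoter is known for DNA methylation in cancer, held 7.97 and 9.40 in WT cells and 2.31 and 5.48 in ΔLEO1 cells in 0.1% serum, with a log2 fold change of −1.17 ± 0.35 (SE) and an adjusted p of 0.274. It was −0.65 without ΔLEO1 replicate A and −1.87 without ΔLEO1 replicate B. In each of the 3 genes the ΔLEO1 and WT libraries in 0.1% serum did not overlap, but they were picked by their falls between these same libraries. Both ΔLEO1 libraries lay below both WT libraries in 37.5% of zinc finger genes and 21.2% of all genes.

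The largest rises were those of ZNF816, ZNF849P, ZNF527, ZNF254 and ZNF56P, and none of them passed. ZNF527 held 2.89 and 2.95 CPM per window in WT cells and 4.97 and 5.10 in ΔLEO1 cells in 0.1% serum, a log2 fold change of 0.76 ± 0.23 (SE) with an adjusted p of 0.279. ZNF816 had the largest fitted value, but in non-overlapping windows it held 0 and 1 reads in WT cells and 3 and 5 in ΔLEO1 cells in 0.1% serum, too few for a fold change.

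Single windows and single sums of non-overlapping windows gave a few calls. Tested 1 by 1, 7 distinct windows of 4 zinc finger genes were called lower in ΔLEO1 cells in 0.1% serum and none higher. That is 0.538% of the 1300 windows tested, where 0.262% of all 140885 windows were called lower, and the 7 windows share reads within genes. These were 3 windows of ZNF702P that start 1 base apart (the first at chr19:52992524-52994524) and 2 of ZNF582 (the first at chr19:56392534-56394534), each set with the same reads, 1 of ZNF701 (chr19:52569664-52571664) and 1 of ZNF730 (chr19:23116025-23118025). The ZNF582 window held 27 and 26 reads in WT cells and 7 and 14 in ΔLEO1 cells, with a log2 fold change of −1.22 ± 0.32 (SE). The ZNF730 window held 31 and 12 reads against 6 and 9, with a log2 fold change of −1.33 ± 0.35 (SE). With reads summed over non-overlapping windows, ZNF841 was called lower, with 107 and 84 reads in WT cells and 71 and 58 in ΔLEO1 cells, a log2 fold change of −0.61 ± 0.16 (SE) and an adjusted p of 0.028. It is 1 of 248 zinc finger genes tested in this way (0.403%), where 0.727% of all genes were called lower. Over all of its windows its adjusted p was 0.42.

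**Figure D5:**
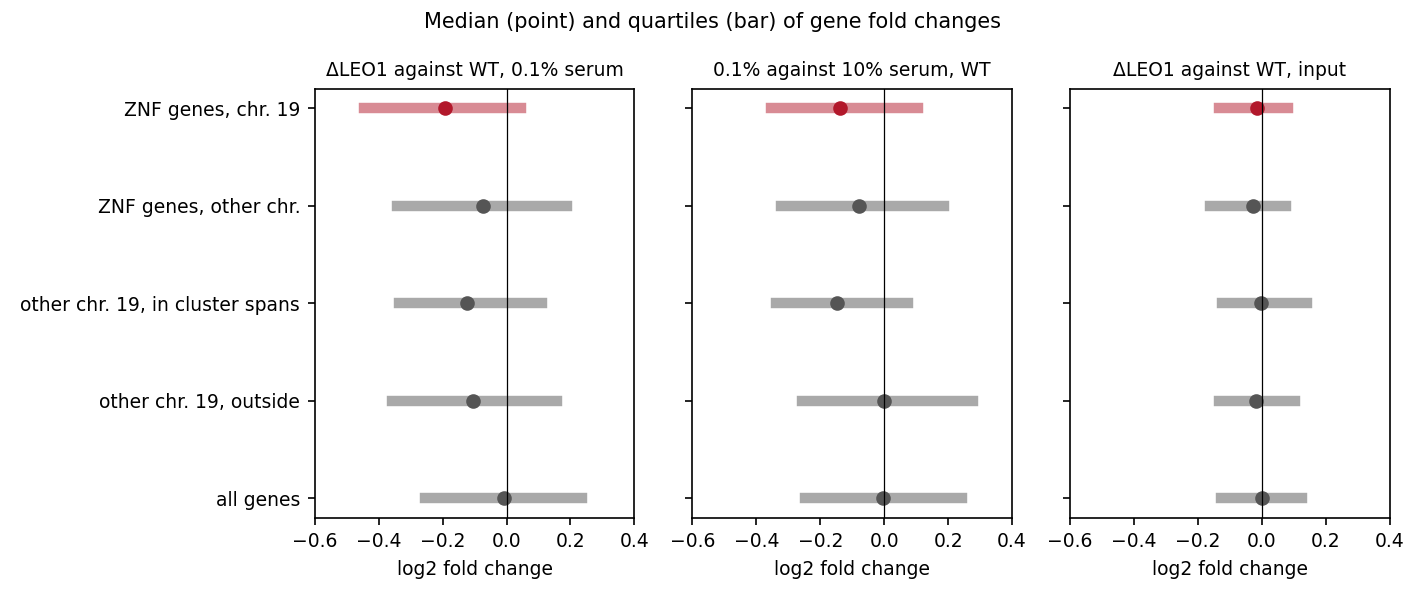
Median (point) and quartiles (bar) of the log2 fold change per gene (x axis) for the zinc finger genes of chromosome 19 (red) and for other sets (y axis), in 3 comparisons. The medians of the zinc finger genes were −0.19 for genotype in ChIP, −0.14 for serum in ChIP and −0.01 for genotype in input; with library sizes from peak regions the genotype median becomes 0.11 and that of all genes 0.29.

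Over all zinc finger genes the input was close to even between the genotypes. Among 258 zinc finger genes none was called between ΔLEO1 and WT input, where 1 of all 57491 genes was (0.00174%). In edgeR's test 10 (3.88%) had an unadjusted p under 0.05, where 5.68% of all genes did. In DESeq2 7 did, where 1061 of all 57491 genes did. The median log2 fold change was −0.01, with 147 genes lower and 111 higher. In cluster 9, 42 of 60 genes (70.0%) were lower in ΔLEO1 input, with a median of −0.07. When the input difference was taken off the ChIP difference in 1 fit, the ChIP median of the zinc finger genes was −0.20 and that of the 59 genes of cluster 9 was −0.30, beside −0.19 and −0.31 from the ChIP reads alone. In that fit 30 of 258 zinc finger genes had an unadjusted p under 0.05 in edgeR's test, where 4449 of all 57638 genes did. From the ChIP reads alone 54 of 256 zinc finger genes did, where 5323 of all 52969 genes did.

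Serum withdrawal was compared in WT cells, with 0.1% set against 10% serum. No zinc finger gene was called by edgeR among 256 tested, and none of all 52969 genes was (0%). Values again leaned to the lower side: 168 genes were lower in 0.1% serum and 88 higher, with a median log2 fold change of −0.14, while that of all genes was −0.0022. With peak regions as library sizes the medians were −0.01 and 0.13. At an unadjusted p under 0.05, 22 zinc finger genes (8.59%) were lower and 0 higher, where 4.76% and 4.3% of all genes were. DESeq2 called none of the 256 and put 8 under that p, where it put 1017 of all 52969 genes there. Both libraries in 0.1% serum lay below both in 10% serum in 94 genes (36.7%), against 23.6% of all genes, and above both in 21 (8.2%), against 17.2%. Other genes inside the cluster spans had nearly the same median, −0.15, and 34.6% of them did not overlap in that direction. Genes of chromosome 19 outside the clusters had a median of 0.00. When the input difference between the sera was taken off, zinc finger genes had a median of −0.15 and all genes −0.07. The difference between these medians was −0.08, beside −0.14 from the ChIP reads alone, so the lean relative to all genes was smaller. In that fit 23 of 258 zinc finger genes had an unadjusted p under 0.05 in edgeR's test, where 5449 of all 57638 genes did.

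Both comparisons share the 2 WT ChIP libraries in 0.1% serum, so their values are given side by side. In clusters 4, 5, 6 and 9 the summed ChIP level in WT cells in 0.1% serum was 0.82 to 0.84 of that in 10% serum, and in clusters 3 and 8 it was 0.96 and 0.94. Between ΔLEO1 and WT in 0.1% serum the ratio was 0.91 in cluster 4, 0.77 in cluster 5, 0.94 in cluster 6 and 0.83 in cluster 9, and 0.92 in cluster 3 and 0.87 in cluster 8. Clusters 1, 2 and 7 had serum ratios of 0.90, 0.89 and 0.88 and genotype ratios of 0.76, 0.86 and 0.95.

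The genes with the largest falls after serum withdrawal were ZNF816, ZNF581, ZNF675, ZNF506 and ZNF849P. ZNF581 held 3.09 and 1.68 CPM per window in 10% serum and 1.23 and 0.752 in 0.1% serum, a log2 fold change of −1.04 ± 0.34 (SE) with an adjusted p of 0.404 in edgeR's test. ZNF506 held 5.82 and 7.25 in 10% serum and 2.45 and 4.70 in 0.1% serum, a log2 fold change of −0.83 ± 0.27 (SE), also with an adjusted p of 0.404. Without replicate A of 0.1% serum the value of ZNF506 was −0.43 and without replicate B −1.34, and that of ZNF581 was −0.62 without replicate A of 10% serum. ZNF816 went from 8 and 6 reads in non-overlapping windows to 0 and 1, with an adjusted p of 0.196 over all of its windows. The largest rises were those of ZNF491, ZNF564, ZNF480, ZNF808 and ZNF708, from 0.99 to 0.52 on the log2 scale, with adjusted p-values of 0.585 to 0.626. The value of ZNF491 rests on 1 library: it held 3.75 and 1.13 CPM per window in 0.1% serum and 1.89 and 0.671 in 10% serum, and without replicate A of 0.1% serum its log2 fold change was −0.08.

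With reads summed over non-overlapping windows, 3 zinc finger genes were called lower in 0.1% serum, ZNF274, ZNF528 and ZNF544. They are 1.21% of the 248 tested, where 0.329% of all genes were called lower. ZNF274 encodes a KRAB zinc finger protein known to bring SETDB1 to the 3′ ends of other zinc finger genes. It held 74 and 89 such reads in WT cells in 10% serum and 48 and 46 in 0.1% serum, a log2 fold change of −0.84 ± 0.18 (SE) and an adjusted p of 0.0046. Over all of its windows its adjusted p was 0.31. Per window, ΔLEO1 cells held 1.25 CPM in 10% serum, where WT cells held 9.68 and 10.4, and 3.73 and 4.13 in 0.1% serum, where WT cells held 5.01 and 6.42. ZNF528 held 116 and 131 reads in 10% serum and 89 and 80 in 0.1% serum, with an adjusted p of 0.014, and ZNF544 held 71 and 88 against 61 and 42, with an adjusted p of 0.041. Depth differs between these libraries, so reads compare only after scaling, as in the fold changes.

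Some zinc finger genes with a known role are given next, chosen after their values were seen. ZNF91 and ZNF93 encode repressors of retrotransposons and both lie in cluster 4. ZNF91 was near its input, with a log2 ChIP over input of 0.04 ± 0.12 (SE), and ZNF93 far below it, at −1.60 ± 0.13 (SE), with 1.75 to 2.29 CPM per window over the 7 ChIP libraries and 5.18 to 7.04 in input. ZNF331, an imprinted gene in cluster 8, stood at 0.31 ± 0.10 (SE). ZNF808, known for its role in pancreas development, stood at −1.11 ± 0.17 (SE). ZNF568 stood at 0.66 ± 0.13 (SE), with 5.38 to 10.4 CPM per window in ChIP and 3.48 to 5.86 in input.

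Deposited peak regions were set against these genes without a share over other genes, so whether they hold few or many peaks was not tested. Of the 271 merged peak regions on chromosome 19, 37 overlapped the RefSeq gene bodies of 24 zinc finger genes, and 10 of these lay in ZNF536, a gene outside the clusters that is known from neural development. HOMER, the authors' annotation tool, placed 10 of the 37 in introns, 6 in intergenic sequence and 15 in LTR, SINE, LINE or retroposon repeats, while 2 lay in CpG islands, those of ZNF135 and ZNF568. The 6 intergenic regions overlap a RefSeq gene body here all the same, several of them in ZNF536, so the counts depend on the gene annotation. The peak of ZNF135 (chr19:58059156-58059770) covers the end of the promoter printed above. The 37 regions held 0.181% to 0.227% of all peak reads in the ChIP libraries and 0.205% to 0.242% in the inputs, with both ΔLEO1 libraries in 0.1% serum, at 0.188% and 0.181%, below all inputs and the other ChIP libraries inside the range of the inputs.

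The genes for corepressor partners of KRAB zinc finger proteins were lower in ChIP than in input. Of a list of 16 that encode TRIM28, SETDB1 and its cofactor ATF7IP, the HP1 proteins, the HUSH complex and its partner MORC2, ATRX and DAXX, and chromatin remodelling and deacetylase subunits, 15 were tested, 13 were called lower and none higher, with a median log2 fold change of −1.10. Of all genes 32.8% were called lower, and of all genes with a CpG-rich promoter 71.9%, with a median of −0.86. TRIM28, which lies on chromosome 19, stood at −1.40 ± 0.12 (SE) and CHD3 at −2.65 ± 0.14 (SE), while TASOR, a subunit of HUSH, stood at 0.01 ± 0.11 (SE). None of the 15 was called between the genotypes or the sera, where the lowest adjusted p-values were 0.444 and 0.515 in edgeR's test. In each comparison 3 were under an unadjusted p of 0.05, where 10.0% and 9.06% of all genes were. For genotype CBX1 and SETDB1 were lower in ΔLEO1 cells and CBX3 higher. For serum ATF7IP, CBX1 and MPHOSPH8 were higher in 0.1% serum.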

How the data were processed

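H3K9me2 ChIP and input DNA of BJ-5ta cells were sequenced. Per the submitters' processing notes, the tools were bcl2fastq 2.20.0.422, STAR 2.7.10a and HOMER, with the builds hg38 and dm6. The values used are the raw read counts per TSS window and per merged peak region that the authors deposited. The study scaled by Drosophila spike-in reads, which were not used here, and TMM scaling took their place.

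Counts were summed per gene over its windows with distinct coordinates, on all chromosomes. Windows of 1 gene that overlap count a read repeatedly. Genes were tested with edgeR 4.0.16 (R 4.3.3; filterByExpr with a minimum count of 10, quasi-likelihood F-tests, 1 coefficient per group, Benjamini-Hochberg adjustment over all genes, threshold 0.05), and the code was tested on simulated data. ChIP over input averaged WT in both sera and ΔLEO1 in 0.1% serum over 15 libraries. Genotype and serum used the 7 ChIP libraries and the input comparison the 8 inputs. DESeq2 1.42.0 was an alternative. Cluster sums, start windows and sets of genes are descriptions without a test, and their log2 ChIP over input divides a library by the mean matched input.

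Named genes were the 6 highest and 6 lowest for ChIP over input, and the 5 largest rises and falls for genotype and serum among genes with at least 10 reads in each library of the higher group, called or not. ZNF841, ZNF274, ZNF528 and ZNF544, the genes of single called windows, the neighbouring runs and the genes with a known role were added after values were seen. The zinc finger genes and lists were chosen with earlier results of these data known. The use of 1 start window per gene and the medians by set over non-overlapping windows were alternatives chosen after seeing the data. Promoter sequences are from RefSeq. All 263 genes matched RefSeq by symbol and 216 had a promoter entry. Protein features were not analysed here.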

Additional observations from a re-analysis of the deposited data

How the results depend on the processing

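The 7 ChIP libraries limit what could be called: the median zinc finger gene had 52 to 82 reads per library, counted in windows that often overlap, and each condition had at most 2 libraries. Levels are relative, and spike-in reads were not used here. The 173 calls for ChIP over input were 161 to 173 with 1 library left out and 185 without TMM scaling, 150 with DESeq2 and 168 over non-overlapping windows. Tested 1 by 1, 1061 of 1485 windows were called. For genotype in 0.1% serum, the count of 0 became 1 over non-overlapping windows (ZNF841), 1 with the nearly empty ΔLEO1 library kept (ZNF816) and 7 with single windows. For serum, the count of 0 became 3 over non-overlapping windows (ZNF274, ZNF528 and ZNF544) and 1 with that library kept (ZNF816). The cause of these changes was not tested. Leaving out any 1 library gave 0 calls for genotype, serum and input. Some member windows are overlapped by a window that belongs to no zinc finger gene. Without them the share ratios were 1.48 for WT in 10% serum and 1.32 for WT in 0.1% serum. They were 1.36 for ΔLEO1 in 10% serum and 1.31 for ΔLEO1 in 0.1% serum. The log2 fold change of ZNF491 for serum ran from −0.083, without replicate A of WT in 0.1% serum, to 1.71, without replicate A of WT in 10% serum. Over all genes, the 6 calls for genotype became 536 over non-overlapping windows, 498 with single windows, 95 with the nearly empty library kept, 45 with peak totals, 44 with DESeq2, 16 without a filter, and 0 without TMM scaling or with the replicate block. The 0 calls for serum became 271, 378 and 75 over non-overlapping windows, single windows and with that library kept, and 3 with DESeq2. The 1 call for input became 36 over non-overlapping windows, 9 with DESeq2, 4 with the replicate block and 131 without replicate B of ΔLEO1 input in 10% serum. A gap of 0.5 Mb gave 10 clusters. The correlation of the differences between ChIP replicates A and B was 0.015 between the genotypes in 0.1% serum and 0.0016 between the sera in WT cells. Among inputs it was highest, at 0.11, between WT and ΔLEO1 in 10% serum. With few ChIP reads per gene, these values cannot decide whether the letters pair the libraries. With the letters as a replicate block, 175 zinc finger genes were called for ChIP over input and 0 for genotype, serum and input.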
